A study of Mus musculus with 3 samples.

Results

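Of 7186 mouse transcripts that the annotation places in the class nonsense_mediated_decay, 1131 (15.7%), from 923 genes, had 10 or more expected counts in each of 3 chromatin RNA libraries. They are called the counted NMD transcripts here. Expected counts are a model's estimate of the reads that belong to each transcript and need not be whole. The transcripts were chosen by these counts, so their counts, levels and shares are described below without a test. Across all classes 25629 of 141767 annotated transcripts (18.1%) met the same minimum, among them 34.9% of the retained-intron, 21.5% of the protein-coding and 11.3% of the processed transcripts. Taken 1 library at a time, 1387, 1832 and 1707 NMD-class transcripts reached 10 counts in replicates 1, 2 and 3, so replicate 1 limited the number most.

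The libraries came from bone marrow-derived macrophages of C57BL/6J mice that had received 100 ng/ml lipid A for 50 min. Lipid A is the membrane anchor of bacterial lipopolysaccharide and the ligand of Toll-like receptor 4. RNA of the chromatin fraction had been depleted of ribosomal RNA and sequenced. All 3 libraries belong to 1 group. The labels number them as biological replicates but give them the same donor code, so the spread between them may be partly technical. Starting RNA was 1000 ng, 250 ng and 500 ng for replicates 1, 2 and 3. No genotype change was named, and neither untreated cells nor another cell fraction was analysed here, so no value below shows a response to lipid A or an enrichment on chromatin. With 3 libraries in 1 group an exact sign-flip test cannot go below p = 0.25, and no test was made. The libraries held 10492291, 17678302 and 14797967 expected counts. All 11 macrophage markers on a list were detected (733 to 765 summed TPM), and markers of T cells, B cells, neutrophils and fibroblasts were not. For erythroid and endothelial cells 1 marker each was detected, and no list of another cell type exceeded 2.87 summed TPM.

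Nonsense-mediated decay is the pathway that degrades mRNAs in which translation ends upstream of an exon junction. Splicing leaves the exon junction complex near each junction, a ribosome that stops before it leaves the complex in place, and the helicase UPF1, phosphorylated by the kinase SMG1, then recruits nucleases. Because the pathway needs translation, it acts on RNA that has left its gene, and RNA still bound to chromatin has mostly not yet been translated. Several genes of splicing factors carry poison exons, cassette exons with an in-frame stop, which the factors themselves use to limit their own mRNA. The class in the annotation is a prediction from the position of the stop codon and not a measurement of decay.

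The exons that hold the early stops of the transcripts discussed most are shown first, since the stop in them is what places these transcripts in the class. Each line runs from the first coding base of the exon to the stop codon, 5′ to 3′, and the stop codon is in capitals.
Tra2a-202: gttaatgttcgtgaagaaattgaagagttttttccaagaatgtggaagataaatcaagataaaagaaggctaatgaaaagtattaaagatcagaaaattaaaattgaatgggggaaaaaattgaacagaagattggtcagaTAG
Tra2b-206: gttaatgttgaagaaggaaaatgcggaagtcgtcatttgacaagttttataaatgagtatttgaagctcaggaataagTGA
Srsf3-201: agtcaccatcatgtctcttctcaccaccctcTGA
Srsf7-203: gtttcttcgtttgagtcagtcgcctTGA
Hnrnpll-203: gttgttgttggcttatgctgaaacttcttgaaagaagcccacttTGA
Rbm39-223: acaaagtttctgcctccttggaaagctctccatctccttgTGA
Ccnl1-203: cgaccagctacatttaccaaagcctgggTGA
Rsad2-202: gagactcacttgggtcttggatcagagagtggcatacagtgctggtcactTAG
Ddx5-208: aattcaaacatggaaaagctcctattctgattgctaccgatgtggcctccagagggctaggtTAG
Smg1-204: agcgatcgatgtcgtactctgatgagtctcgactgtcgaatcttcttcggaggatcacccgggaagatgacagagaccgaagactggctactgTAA
Lilr4b-213: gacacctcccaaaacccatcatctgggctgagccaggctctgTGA
Lilrb4a-205: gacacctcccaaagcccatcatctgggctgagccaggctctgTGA
The sequences are those of the GENCODE M21 transcripts on GRCm38. The exons lie at chr6:49252803-49253108 (Tra2a, minus strand), chr16:22258986-22259261 (Tra2b, minus), chr17:29039454-29039909 (Srsf3, plus), chr17:80204622-80205081 (Srsf7, minus), chr17:80044940-80045022 (Hnrnpll, minus), chr2:156174097-156174168 (Rbm39, minus), chr3:65955130-65955276 (Ccnl1, minus) and chr12:26451973-26452407 (Rsad2, minus). In these 8 exons no printed base lies in an exon of a protein-coding isoform of the gene, so the stop belongs to an added exon. The added exons of the paralogs Tra2a and Tra2b share their first 9 bases and then part. In Ddx5 (chr11:106782469-106784018, minus) 60 of the 65 printed bases belong to exons of coding isoforms and 5 do not, so the stop lies just past the end of a known exon, in sequence that the coding isoforms remove as an intron. In Smg1 (chr7:118210739-118210875, minus) all 96 printed bases belong to coding isoforms. The lines of the paralogous receptor genes Lilr4b and Lilrb4a (chr10:51481140-51481424 and chr10:51491434-51491718, both plus) differ in 1 of 45 bases, A14G counted from 1 at the 5′ end with the Lilr4b base first, so reads from here can be shared between the genes.

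The stop codon of a counted NMD transcript usually lay far upstream of the last junction. Of 1130 with an annotated stop, 1126 (99.6%) had it 50 bases or more before the last exon junction, which is how the class is assigned, against 5 of 1366 protein-coding transcripts (0.366%) that met the count minimum in the same genes. The median distance was 672.5 bases with 4 junctions after the stop, and Smg1-204 had the most junctions, 59. The median open reading frame was 154 codons, at the median 27.2% of the gene's longest coding frame, and 75.1% of the transcripts in genes with a coding isoform started at an annotated coding start. The annotated start is incomplete in 265 of the 1131 (23.4%), so their frames may be longer than annotated. Against 3549 NMD-class transcripts that failed the minimum in genes with a mean of 1 TPM or more, the counted ones were longer (median 2607 against 839 bases), had their stop farther from the last junction (672.5 against 279.5 bases) and carried the best annotation support level more often (46.3% against 21.02%). A longer transcript collects more reads at the same abundance, so the rule itself favours length. TGA ended 53.5% of the frames, TAA 24.4% and TAG 22.1%, against 49.05%, 27.5% and 23.4% in the protein-coding transcripts of the same genes.

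**Figure D1:**
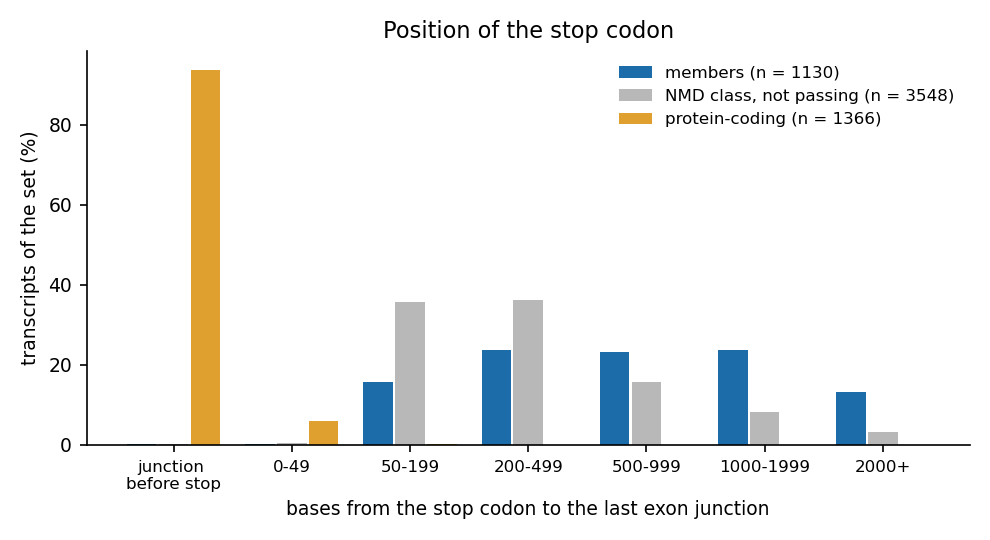
Distance in bases from the stop codon to the last exon junction (x axis, binned) for the counted NMD transcripts, NMD-class transcripts below the count minimum in genes with 1 TPM or more, and protein-coding transcripts of the same genes as the counted ones, as percent of each set (y axis). Of the protein-coding transcripts 93.8% have no junction after the stop, and the bin that starts at 50 bases holds 15.8% of the counted NMD transcripts against 35.8% of those below the minimum.

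Where the stop came from differed between transcripts. In 561 of 1131 (49.6%) it lay inside exon sequence that coding isoforms translate, as after a skipped exon or a shifted junction that changes the reading frame. In 258 (22.8%) it lay in an extra exon that no coding isoform has. In 192 (17.0%) it lay in a part of an exon that extends beyond the exons of coding isoforms. In 86 the stop was that of a coding isoform and a junction further downstream placed the transcript in the class, and 18 came from genes with no protein-coding transcript. The extra exon was internal in 255 of 258 transcripts, had a median length of 115 bases (quartiles 77.5 and 162) and was not a multiple of 3 long in 166 (65.1%), against 64.2% of 698 such exons in transcripts below the minimum. Median shares of the gene's TPM were 12.3% ± 0.550 for stops inside coding sequence, 10.3% ± 0.908 for extra exons, 14.3% ± 0.568 for extensions and 16.7% ± 0.930 for shared stops (mean ± SD of the 3 library medians). In a second quantification of the same libraries the medians of the mean shares were 9.61%, 11.4%, 13.4% and 11.1% in that order. Extra exons were no longer lowest there and shared stops no longer highest, so the order is not firm. The 110 transcripts with at least 50% of their bases outside exons of coding isoforms had the highest median share of 4 bins (23.0%, 16.7% and 17.6% in replicates 1, 2 and 3), and those with no such base had 12.1%, 13.6% and 13.4%. The 574 with more than 0% and up to 25% were lowest (10.6%, 11.6% and 11.2%), so there was no steady rise in the first quantification. In the second the medians of the mean shares rose from bin to bin, at 8.62%, 10.3%, 12.8% and 17.5%, with the 0% bin lowest. Spearman rho between the share and the percent of such bases was 0.0869 over 1113 transcripts, and 0.227 in the second quantification. Whether reads in such bases came from RNA not yet spliced was not tested. Members of a gene are not independent, since 92 of the counted transcripts shared their stop position with another one.

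The median counted NMD transcript made up 12.4%, 12.9% and 13.2% of its gene's TPM in replicates 1, 2 and 3 (12.8% ± 0.405, SD, n = 3). TPM is the count divided by length and scaled to a fixed sum, and a transcript's share is its TPM over the summed TPM of all transcripts of the gene. The minimum of 10 counts removes low shares. With no minimum the median was 0.375% ± 0.394 over all NMD-class transcripts of genes above 0 TPM in every library. Under the same minimum the median share was 18.1% ± 1.57 for retained-intron, 29.1% ± 1.61 for protein-coding and 18.7% ± 0.957 for processed transcripts. The NMD median was below the retained-intron median by 7.56, 4.27 and 4.11 points, and below the protein-coding median by 15.0, 16.6 and 17.4 points, in 3 of 3 libraries each. The distance to protein-coding transcripts averaged -16.3 points, and it was -29.2 in shares of expected counts and -8.38 in the second quantification of the same transcripts. Taken as shares of expected counts, which do not divide by length, the distance to retained introns was -0.495 ± 1.57 points, less than its SD, and the sign against processed transcripts turned, from -5.88 ± 1.34 points in TPM to 2.84 ± 1.13 points. The share also depended on how many isoforms the annotation lists (Spearman rho -0.505 over 1131 transcripts, a description, since shares of a gene sum to the same total).

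**Figure D2:**
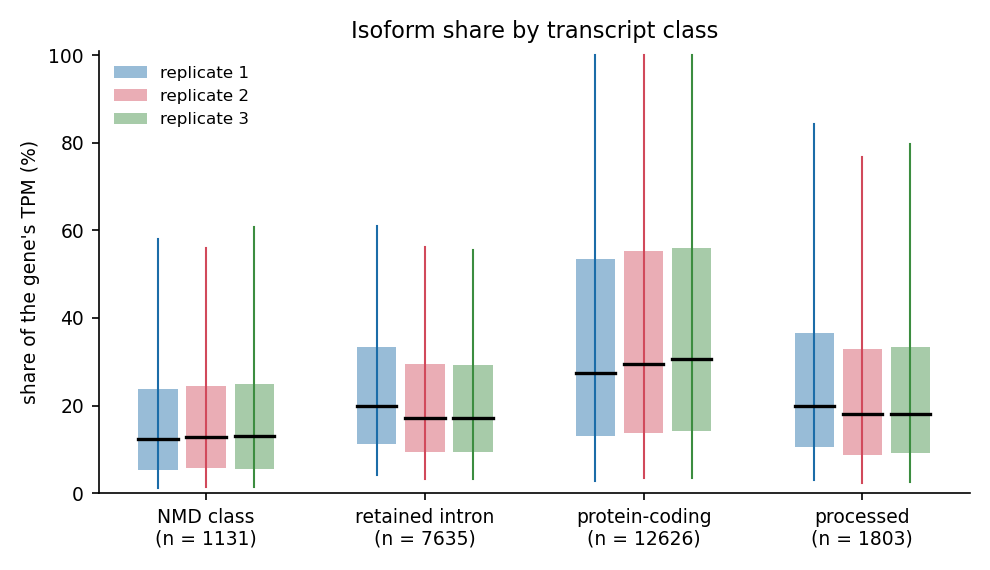
Share of the gene's TPM in percent (y axis) for transcripts with 10 or more expected counts in each library, by class and replicate (x axis). Black lines are medians, boxes the middle quartiles and thin lines the 5th to 95th percentile. The NMD medians, 12.4% to 13.2%, are the lowest of the 4 classes in each library.

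Few counted NMD transcripts dominated their gene. Their mean share was under 5% for 230, from 5% to under 25% for 623, from 25% to under 50% for 196 and 50% or more for 82. The transcript was the largest isoform of its gene in every library for 113 of 1131 (9.99%), where 30.3% of all transcripts that met the minimum were, 14.7% of retained-intron and 31.7% of protein-coding ones. These sets include transcripts that are the only one of their gene and so the largest by construction. Of all that met the minimum, 22959 of 25629 were in genes with several isoforms, and of the protein-coding ones 12007 of 12626. Of the counted NMD transcripts 1121 of 1131 were. Part of the difference thus follows from how the sets are made up. Chosen and ranked on replicates 2 and 3 alone, 170 of 1468 NMD-class transcripts (11.6%) were the largest isoform. The 82 at 50% or more sat in genes of low level, at a median gene TPM of 2.53 against 22.9 for the others. Of the 82, 17 were in genes of 10 TPM or more. The count minimum itself favours this, since in a weakly expressed gene only a large share reaches 10 counts. Seen by gene, NMD-class transcripts together took a median of 17.9%, 19.6% and 19.6% of the TPM of the 923 genes in replicates 1, 2 and 3. Protein-coding transcripts took 31.9%, 37.9% and 39.0% and retained-intron transcripts 36.2%, 29.8% and 28.1%. In 182 of the 907 genes with a coding transcript the NMD class exceeded the protein-coding class in every library. Over all transcripts the NMD class held 1.97% ± 0.0532 of expected counts (retained introns 15.1% ± 3.37, protein-coding 43.6% ± 0.922), and the counted ones carried 92.7% ± 1.66 of that.

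The helicase gene Ddx5, which acts in transcription and splicing, had its largest isoform in the NMD class. Ddx5-208 stood at 249, 199.5 and 243.2 TPM in replicates 1, 2 and 3, from 11105, 17194 and 14065 expected counts. That was 45.4%, 56.5% and 56.6% of the gene, against 17.8% ± 2.67 for its protein-coding and 18.5% ± 8.41 for its retained-intron transcripts. Of the 3593 bases of this transcript 1265 lie outside exons of coding isoforms, and the exon with the stop runs on for 1485 bases after it. Whether reads in those 1265 bases came from this isoform or from RNA not yet spliced was not tested. The share of Ddx5-208 was lower in the second quantification, at 30.9%, 43.5% and 41.1%.

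The myeloid receptor gene Lilr4b gave the most abundant counted transcript. Lilr4b-204 stood at 261, 206 and 319 TPM and Lilr4b-213 at 148, 66.7 and 85.8 TPM in replicates 1, 2 and 3. These were 10.6%, 11.8% and 14.5%, and 6.01%, 3.81% and 3.90%, of a gene whose retained-intron transcripts held 81.4%. The paralog Lilrb4a stood at a like gene level (2703, 1475 and 2036 TPM), but its Lilrb4a-205, with the line 1 base apart shown above, held 0.0263%, 0.189% and 0.387%. The split of reads between these genes is uncertain.

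Other transcripts of high TPM came from genes of varied function. Gpnmb-202, of a transmembrane glycoprotein gene, reached 66.6, 75.2 and 103 TPM from only 147, 263 and 239 expected counts, because it is 365 bases long, and its stop lies 52 bases before the last junction. Fam20c-203, of a kinase gene of the secretory pathway, stood at 35.3, 66.3 and 112 TPM, lowest in replicate 1, with shares of 7.42%, 16.9% and 21.5%. Sat1-207, of the enzyme gene that acetylates spermidine, held 11.9%, 22.2% and 22.1%, also lowest in replicate 1, and Mdm2-209, of the ubiquitin ligase gene that controls p53, held 10.503%, 12.0% and 12.9%. In Sat1 and Mdm2 retained-intron transcripts held 72.9% and 67.9%, more than the NMD and protein-coding transcripts together. Of the 1131 transcripts 127 had a mean of 10 TPM or more and 868 of 1 TPM or more, and the median was 2.14, 1.83 and 2.29 TPM in replicates 1, 2 and 3.

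**Figure D3:**
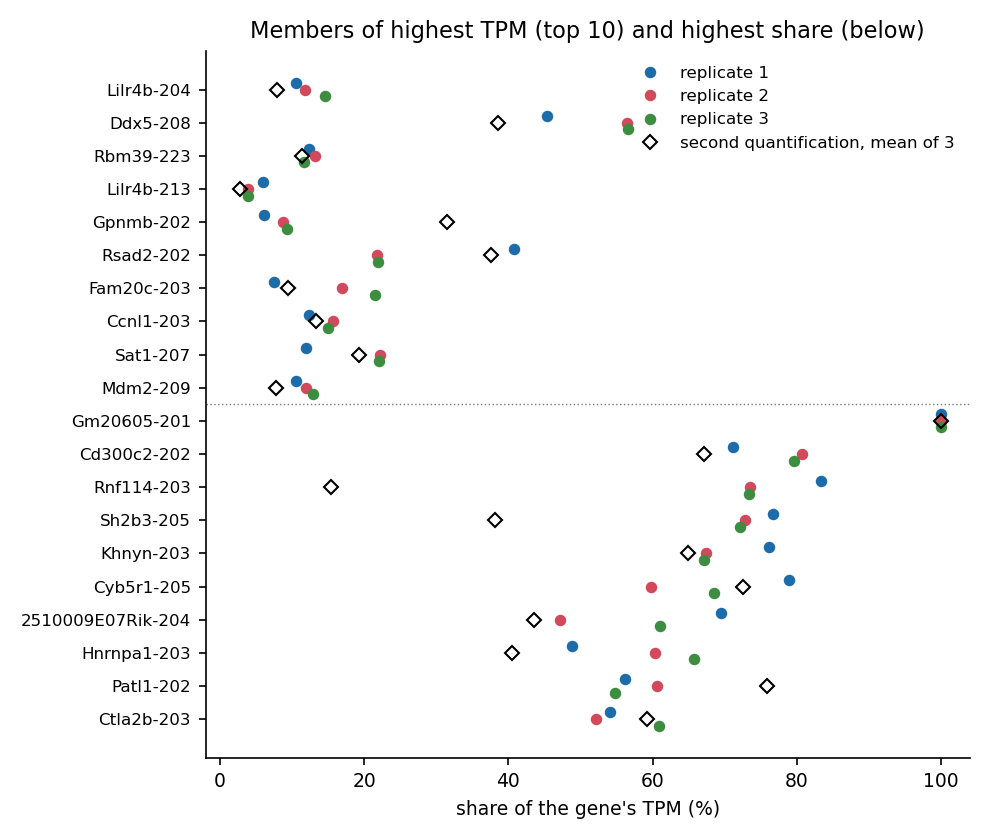
Share of the gene's TPM in percent (x axis) for the 10 counted NMD transcripts of highest mean TPM (above the dotted line) and the 10 of highest mean share in genes of 10 TPM or more (below). Filled circles are the 3 libraries in the first quantification and open diamonds the mean of 3 in the second; Rnf114-203 lies at 73.4% to 83.3% in the first and at 15.4% in the second.

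Genes of splicing factors often held a counted NMD transcript, and so did strongly expressed genes in general. On 3 lists of SR proteins with Tra2, hnRNP proteins, and other splicing regulators and spliceosome parts, 67 detected genes had an annotated NMD-class transcript and 44 of them (65.7%) held a counted one, 70 transcripts in all. The background was 29.8% of 3094 detected genes with such a transcript, where detected means 10 or more expected counts in each library. That share rose with level, from 6.16% of genes under 1 TPM to 19.7% at 1 to 10, 43.1% at 10 to 50 and 65.0% at 50 TPM or more. The splicing lists stood at 59.1% (13 of 22) at 10 to 50 TPM and 75.6% (31 of 41) at 50 or more. Of the 70 transcripts 33 (47.1%) had their stop in an extra exon, where 22.8% of all counted NMD transcripts had, and 22 had it inside coding sequence. Rbm39 and Ccnl1 gave 13 of the 33, and without these 2 genes, left out after their values were seen, it was 20 of 57 (35.1%). The median share of the 70 was 6.02%, 7.999% and 8.23% in replicates 1, 2 and 3, below that of all counted ones, and 20 of 70 lay above the median of all. A small share meets the minimum only in a strongly expressed gene. Of the 67 genes 41 stood at 50 TPM or more, where the median gene level over all counted transcripts was 20.2 TPM. The minimum itself thus admits lower shares on these lists.

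Among the SR proteins, which bind exonic enhancers, and the related Tra2 proteins, 6 of 11 genes held 1 counted transcript each. Tra2a-202, with the long added exon shown above, held 40.9%, 38.9% and 33.2% of its gene in replicates 1, 2 and 3, and its level was 40.3, 17.4 and 23.6 TPM. Protein-coding transcripts held 7.72% ± 4.97 of Tra2a. Its paralog Tra2b-206 had the same kind of exon but held 1.06%, 2.27% and 3.97%, the lowest of the 6. Srsf4-204 held 32.3%, 26.4% and 17.0% from 45.0 to 64.6 expected counts, and its annotated start is incomplete. Srsf3-201 (4.57%, 5.35% and 7.77%), Srsf6-201 (6.45%, 8.08% and 9.87%) and Srsf7-203 (2.70%, 4.01% and 5.01%) were lower, each lowest in replicate 1 and highest in replicate 3. In Srsf3 and Srsf7 retained-intron transcripts held 79.5% and 76.5% of the gene.

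The hnRNP proteins package pre-mRNA and often repress exons, and 10 of 14 of their genes held 12 counted transcripts. Hnrnpa1 had the highest NMD share, with Hnrnpa1-203 at 48.9%, 60.3% and 65.8% and Hnrnpa1-204 at 44.1%, 27.7% and 27.3% in replicates 1, 2 and 3. Together they held 91.4% ± 2.85 of the gene. Both end at a stop that coding isoforms use, and the junction that puts them in the class lies downstream, 2 or more junctions after the stop. Hnrnpll-203, with an added exon, held 15.2%, 25.01% and 26.4%. Hnrnpd-208 held 37.2%, 46.2% and 34.0% and also ends at a shared stop, as does Hnrnpa2b1-207, which held 1.39%, 2.99% and 3.53%. Hnrnpu-206 is annotated as a readthrough transcript and held 16.2%, 35.0% and 37.1%. Replicate 1 was the lowest library for each of these except Hnrnpa1-204 and Hnrnpd-208.

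Rbm39, a splicing factor gene, had the most counted NMD transcripts, 8, and the cyclin L1 gene Ccnl1, whose protein partners kinases that act on splicing, had 5. The 8 of Rbm39 (chr2:156147249-156180184, minus strand) used 5 stop positions in extra exons, and 4 of them shared 1 stop. Rbm39-223 held 12.4%, 13.2% and 11.7% in replicates 1, 2 and 3 (122, 98.1 and 112 TPM), and the other 7 had mean shares of 0.234% to 2.53%. In the second quantification Rbm39-224 went from 1.27% to 12.8%, above Rbm39-223 at 11.4%. The NMD class summed to 18.4%, 19.4% and 19.3% of Rbm39, a narrow range, beside 48.4%, 44.8% and 45.6% for retained-intron and 22.4%, 28.4% and 25.9% for protein-coding transcripts. All 5 Ccnl1 transcripts (chr3:65946151-65958169, minus strand) used the same stop, that of the line above. Ccnl1-203 held 12.4%, 15.6% and 15.0%, and the 5 summed to 23.5%, 27.7% and 30.9%. Protein-coding transcripts held only 0.717%, 1.21% and 2.52% of Ccnl1 and retained-intron ones 75.8%, 71.0% and 66.6%. How reads were split among transcripts with 1 stop was unstable, since Ccnl1-205 went from a mean of 10.2% in the first to 0.847% in the second quantification and Ccnl1-207 from 1.22% to 13.4%.

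A further 8 genes had 4 counted NMD transcripts each, and in 2 of them the class took close to 50% of the gene or more. In Senp2, which encodes a SUMO protease, they summed to 66.9%, 70.3% and 61.1% in replicates 1, 2 and 3, with 4 different stops. In Arih2, a ubiquitin ligase gene, they summed to 44.2%, 54.6% and 49.9%, led by Arih2-207 at 24.7%, 31.9% and 31.1%. The transcription regulator genes Bclaf1 and Dmtf1 stood at 40.3% ± 3.93 and 33.2% ± 3.76, and the endolysosomal channel gene Tpcn2 at 31.9% ± 2.22. The flippase gene Atp9b (24.8% ± 0.637), the G protein signalling gene Rgs1 (15.7% ± 2.30) and the bicarbonate transporter gene Slc4a7 (8.89% ± 1.78) were lower, and the 4 of Slc4a7 shared 1 stop. In 7 of the 10 genes with 4 or more counted NMD transcripts, retained introns took the largest summed share in every library.

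**Figure D4:**
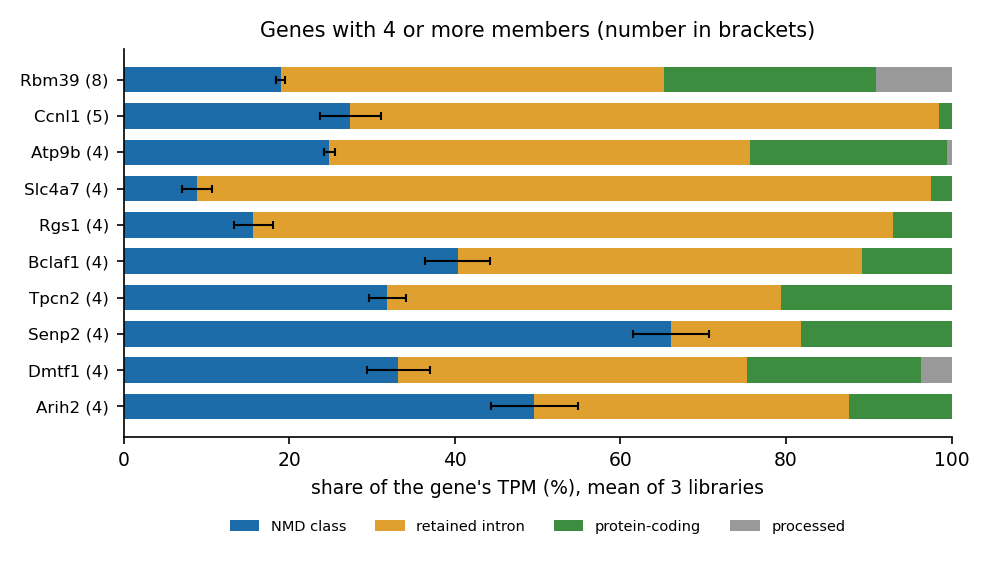
Summed share of the gene's TPM in percent (x axis, mean of 3 libraries) by transcript class for the 10 genes with 4 or more counted NMD transcripts (y axis, number in brackets). Error bars are the SD of the NMD share over 3 libraries. The NMD share runs from 8.89% in Slc4a7 to 66.1% in Senp2.

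The decay pathway's own genes held 1 counted transcript. All 13 genes on a list of NMD factors were detected, from 1.89 TPM for Smg8 to 91.0 TPM for Smg1, and 3 of them (Smg1, Smg5 and Smg6) had an annotated NMD-class transcript. Smg1-204 of the UPF1 kinase gene stood at 16.4, 31.0 and 23.7 TPM and held 17.9%, 34.8% and 25.7% of its gene in replicates 1, 2 and 3, lowest in replicate 1 and highest in replicate 2. Its frame ends after 58 codons, where the longest coding frame has 3658, and its annotated start is incomplete. It spans 12147 bases, all in exons of coding isoforms. Of the 8 exon junction complex genes 6 were detected and none of these had an annotated NMD-class transcript.

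Interferon-stimulated genes held 8 counted NMD transcripts in 5 of 8 genes (62.5%), some with large shares. The background was 29.8% of all detected genes with an annotated NMD-class transcript, 43.1% at 10 to 50 TPM and 65.0% at 50 TPM or more. The median level of 26.2 TPM was taken over all 38 genes on the list, not over these 8. Of the 5 genes that held one, Rsad2 (235 TPM), Gbp5 (257 TPM) and Oasl2 (118 TPM) lay in the upper band and Mx1 (40.4 TPM) in the lower. The level of the remaining one, Oas1g, is not given here. Rsad2-202, of the antiviral enzyme viperin, differed most between libraries in level. It stood at 139, 11.2 and 68.8 TPM in replicates 1, 2 and 3, in a gene at 341, 51.4 and 313 TPM. Its share was 40.7%, 21.8% and 21.9%, so replicate 1 was high in share while replicate 2 was low in level. The least starting RNA had gone into replicate 2, and input and library cannot be told apart. Oasl2-205, of an oligoadenylate synthetase-like gene, held 21.5%, 28.1% and 30.05%, and Oas1g-203, named after its values were seen, held 37.9%, 42.7% and 58.8%. Gbp5-202 and Gbp5-203, of a guanylate-binding protein, held 14.3%, 24.2% and 26.7%, and 8.16%, 5.92% and 3.03%. In Mx1, the gene of an antiviral dynamin-like GTPase, Mx1-205 held 18.6%, 42.5% and 34.1%, Mx1-210 24.96%, 14.5% and 24.5% and Mx1-203, also named after its values were seen, 4.42%, 4.57% and 4.38%. Together the Mx1 transcripts held 57.5% ± 8.27 of the gene and its protein-coding ones 11.6% ± 3.96. The order within Mx1 did not hold in the second quantification, where Mx1-205 held 2.31% and Mx1-203 26.4%.

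Genes of the NF-kB and immediate early response held 11 counted NMD transcripts in 8 of 11 genes (72.7%), and most had small shares. The median level was 68.4 TPM over all 66 genes on the list, not over these 11 alone. Of all detected genes at 50 TPM or more with an annotated NMD-class transcript, 65.0% held a counted one. Plaur-206, of the urokinase receptor gene, was the exception at 23.4%, 32.2% and 22.3% in replicates 1, 2 and 3. Birc3-207, of an inhibitor of apoptosis gene, held 11.7%, 8.57% and 10.4%. Malt1, the paracaspase gene, had 3 (Malt1-212 at 5.36%, 3.14% and 3.03%, Malt1-211 at 2.01%, 7.53% and 5.19%, and Malt1-204 under 1% in each library). In the second quantification Malt1-212 held 10.6% and Malt1-204 2.27%, against means of 3.84% and 0.768% in the first. Tnfaip2-209 held 0.470%, 3.57% and 1.44% of a gene at 2905, 1643 and 2201 TPM. The list's median share was 2.01%, 3.57% and 3.03%, and that of the interferon list 20.1%, 23.0% and 25.6%, against 12.4%, 12.9% and 13.2% for all counted NMD transcripts. These medians depend on gene level, since a small share meets the minimum only in a strongly expressed gene. Of the Toll-like receptor 4 pathway, 2 of 6 genes (33.3%, against 29.8% of all) held 1 each, Ikbkb-208 of the kinase IKK-beta at 10.6%, 10.498% and 11.1% and Tbk1-204 at 3.32%, 5.20% and 3.42%. Of the ribosomal protein genes 2 of 17 (11.8%) held 1. The background was 29.8% of all genes, 19.7% of those at 1 to 10 TPM and 43.1% at 10 to 50 TPM. The median level of 11.9 TPM was taken over all 82 genes on the list, not over these 17. Rpl12-201 held 22.1%, 17.6% and 16.7%, and Rps13-205 held 17.1%, 16.0% and 43.0%, high in replicate 3 alone, from 17.2, 29.9 and 84.4 expected counts.

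The highest shares in genes of 10 TPM or more came from genes of varied function. Gm20605-201 is the only annotated transcript of a readthrough locus, so its share was 100% by construction (11.8, 10.3 and 17.2 TPM). Cd300c2-202, of a myeloid receptor gene, held 71.2%, 80.7% and 79.6% in replicates 1, 2 and 3, Rnf114-203, of a ubiquitin ligase gene, 83.3%, 73.5% and 73.4%, and Sh2b3-205, of an adaptor that restrains cytokine signalling, 76.8%, 72.9% and 72.1%. The second quantification gave only 15.4% for Rnf114-203 and 38.1% for Sh2b3-205. Khnyn-203, of a cofactor of the zinc-finger antiviral protein, held 76.1%, 67.4% and 67.1% and Cyb5r1-205, of a reductase, 78.9%, 59.8% and 68.5%. Patl1-202, of a factor that promotes mRNA decapping, held 56.2%, 60.6% and 54.8%, with its stop 214 codons into a frame of 770. Ctla2b-203 (54.1%, 52.2% and 60.8%) and 2510009E07Rik-204 (69.5%, 47.1% and 61.0%) complete the 10, together with Hnrnpa1-203 above. Each of the 10 was the largest isoform in every library.

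Shares differed between libraries by an amount that was large beside the share for many transcripts. The median range over 3 libraries was 5.56 points, and it was under 5 points for 516 of 1121 transcripts in genes with several isoforms. It reached 10 points for 306 of these (27.3%), where 38.5% of all transcripts that met the minimum did. For the same 1121 a difference of 10 points or more was found in 123 between replicates 2 and 3, 209 between 1 and 2 and 206 between 1 and 3, pairs that were compared after seeing the data. With 1468 transcripts chosen on replicates 2 and 3 alone it was 171, where a range over 2 libraries is smaller by construction. Replicates 2 and 3 were closest (Pearson r of shares 0.912, against 0.839 for replicates 1 and 2 and 0.838 for 1 and 3, across transcripts that share libraries and genes). Of the 306, 116 (37.9%) were highest and 141 lowest in replicate 1, and of all transcripts with such a range 41.3% were highest there. Replicate 1 had the fewest counts and the highest retained-intron share, whose part in this was not tested. The largest ranges in genes of 10 TPM or more were those of Fam53c-203 (16.1%, 51.8% and 18.8%), Donson-208 (42.9%, 9.96% and 16.3%) and Capn7-203 (45.4%, 21.3% and 14.1%). Acap2-204 (17.7%, 21.3% and 43.5%) and Syt8-211 (7.42%, 32.6% and 26.3%) followed, the latter from 11.0, 68.2 and 50.1 expected counts. The deposited tables also give a posterior SD of each count, which covers the assignment of reads among isoforms. Its median was 17.1% ± 2.47 of the count for the counted NMD transcripts, against 5.05% ± 0.271 for retained-intron and 9.96% ± 1.26 for protein-coding transcripts, so the NMD estimates were the least certain of the 3 classes.

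In a second quantification of the same libraries single shares often differed from the first. Of the 1131 transcripts 1042 (92.1%) had 10 or more estimated counts in each library there and 8 were at 0, while 2135 NMD-class transcripts met the minimum, 1093 of which did not in the first. The second quantification assigned 16644525, 30070348 and 25184406 counts in replicates 1, 2 and 3, more than the first in each library. A minimum of 10 counts is therefore looser there, and how much of the 2135 follows from this was not tested. The median share of the 1131 was 10.55%, 11.2% and 10.9% in replicates 1, 2 and 3. Of 1120 transcripts compared, 546 had a mean share within 1.5 times of the first, 207 were higher and 367 lower (Spearman rho 0.694, Pearson r 0.729, across transcripts of the same libraries). Dirc2-202 rose from a mean of 13.7% to 68.4%, Ripk2-202, of a kinase in NOD signalling, from 6.04% to 53.5%, Rab32-202, of a small GTPase, from 13.4% to 51.3%, Sh3bp5-203 from 27.5% to 63.8% and Stard9-203 from 45.9% to 78.4%. Besides Rnf114-203 and Sh2b3-205, Zmym5-205 fell from 54.5% to 15.3%, Cdk17-204, of a kinase, from 37.4% to 7.62% and Mx1-205 from 31.8% to 2.31%. Of 111 transcripts named by the rules given below, 66 moved by more than 1 SD of their 3 libraries in the first quantification. Examples that differed by about 1 point or less were Rbm39-223 (12.4% and 11.4%), Ccnl1-203 (14.3% and 13.3%), Hnrnpll-203 (22.2% and 22.6%), Sat1-207 (18.7% and 19.2%) and Ikbkb-208 (10.7% and 10.2%).

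**Figure D5:**
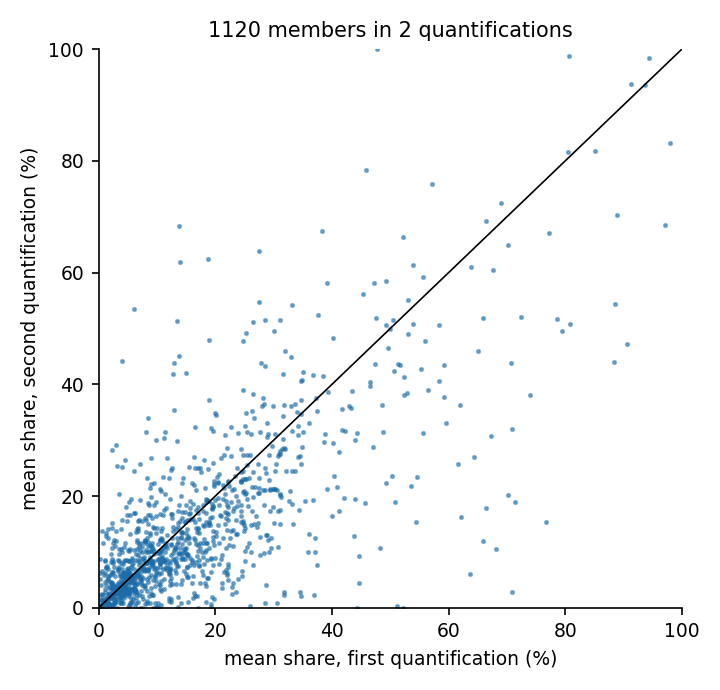
Mean share of the gene's TPM in percent over 3 libraries in the first (x axis) and second (y axis) quantification, 1 point for each counted NMD transcript in a gene with several isoforms, with the line of equal shares. Of 1120 compared transcripts 546 lie within 1.5 times of the line.

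At the limit of 10 counts small differences decided which transcripts were counted. Just inside were Zfp28-206 (15.8, 13.4 and 10 expected counts in replicates 1, 2 and 3), Tmco6-205 (10, 18.9 and 20.9) and Diablo-205 (24.7, 17.9 and 10.03), with mean shares of 25.3%, 14.8% and 3.72%. Just outside were Mettl3-206 (20.0, 9.99 and 11.2), Cpsf4-204 (19.6, 19.7 and 9.99) and Got1-204 (9.93, 12.9 and 11.8). The lowest shares among the 1131 belonged to strongly expressed genes, where a small share still gives 10 counts. Zc3h7a-208 held 0.121%, 0.0730% and 0.0884%, Tcirg1-202 0.254%, 0.238% and 0.245% and Itga5-202 0.142%, 0.227% and 0.385%.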

How the data were processed

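Ribosome-depleted RNA of the chromatin fraction was measured in 3 libraries of lipid A-treated macrophages. Per the deposited notes, the authors made 2 quantifications of each library on build mm10 with annotation M21, one from alignments to the transcriptome and one from the reads and an index. The programs and versions are not given in the sources used here. The deposited tables hold expected counts (first) and estimated counts (second) for each transcript, and the deposited TPM values divide these by effective length and scale them to a fixed sum. A posterior SD of each count was deposited with the first. Replicates were not pooled.

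The transcripts and gene lists were chosen with earlier results of these data known. A transcript's share is its TPM divided by the summed TPM of its gene. Classes, exons and stop positions came from the GENCODE M21 annotation, and stop codons were read from its transcript sequences. Rows that name no mouse transcript held 1.32%, 0.478% and 0.438% of expected counts in replicates 1, 2 and 3 and were left out. The named transcripts are the 10 of highest TPM, the 10 of highest share, the 5 of lowest share, the 5 of widest range, the 5 that rose and the 5 that fell most between quantifications, up to 6 on each gene list, 3 on each side of the minimum, and those of genes with 4 or more. Highest share, range and the change between quantifications were ranked in genes of 10 TPM or more. No test was made, as there is 1 group. Calculations used Python 3.11.15, pandas 2.3.3, numpy 2.4.6 and matplotlib 3.10.9 and were tested on simulated data.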

Additional observations from a re-analysis of the deposited data

How the results depend on the processing

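The number of counted NMD transcripts was 505 at a minimum of 50 counts and 2135 in the second quantification, which assigned more counts in each library. The median share of the counted NMD transcripts was 11.3%, 14.0% and 16.0% at minimums of 5, 20 and 50 counts. It was 12.3% as shares of expected counts, and 12.3% and 10.9% in the second quantification with transcripts chosen there or kept. With no minimum it was 0.375% ± 0.394. It was 13.3% as the median of mean shares, and 11.7% to 12.6% with 1 library left out. Those that were the largest isoform of their gene numbered 275 among the 2135 chosen in the second quantification, 102 with the 1131 kept and shares taken from it, and 129 to 170 with 1 library left out and the transcripts chosen again. The difference from retained introns was -0.495 points in expected counts. The difference from protein-coding transcripts was -29.2 points in expected counts, -10.2 and -8.38 in the second quantification with transcripts chosen there or kept, and -14.3 in genes of 1 TPM or more. The difference from processed transcripts was 2.84 points in expected counts, a reversal, and -8.84 in the second quantification. Ranges of 10 points or more numbered 119 at a minimum of 50, 451 and 188 in the second quantification with transcripts chosen there or kept, and 171 to 233 with 1 library left out and the transcripts chosen again. The NMD class held 3.09% of counts in genes with a coding transcript, and 0.737% of all TPM against 3.73% in those genes. Its median sum per gene was 17.2% and 22.0% at minimums of 5 and 50 and 17.3% in the second quantification, alternatives chosen after seeing the data, and 17.7% to 18.5% with 1 library left out. Stops 50 bases or more before the last junction numbered 503 at a minimum of 50 counts, where fewer transcripts enter. Other causes were not tested. No paired analysis was possible because there is 1 group.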
